A study of Mus musculus with 47 samples.

Results

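The genes of microglia, the resident macrophages of the brain, were followed through RNA-seq libraries of brainstem and hippocampus from 12-month-old male C57BL/6 mice. The set held 41 listed symbols, chosen by name as 20 genes of microglial identity (called homeostatic below), 6 genes of complement and its receptors, and 15 genes of activation, that is of phagocytosis, pattern recognition and the Trem2 pathway. A row with a matching Ensembl identifier was found in both count tables for 40 of the 41. No annotated mouse gene carried the remaining symbol, Lpl2, and it was left out. The tables held 33139 rows for brainstem and 31751 for hippocampus.

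The TG mice came from a homozygous colony that carried a human transgene. It was driven by the Thy1 promoter, specific to neurons of the CNS. WT mice had the same C57BL/6 background and formed a colony of their own, so genotype and colony cannot be told apart. From 5 weeks of age until 12 months the mice received a standard diet (SD) or a high-fat diet (HFD), which gave the groups WT_SD, WT_HFD, TG_SD and TG_HFD in each region. Brainstem, sampled as the posterior medulla, had 5 libraries of WT_SD and 6 of each other group, and whole hippocampus had 6 of each. Neither table nor labels tie a brainstem library to a hippocampus library of the same mouse.

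Total counts ranged from 10020784 to 15078812 in brainstem and from 11945971 to 17328447 in hippocampus. In brainstem, 1 library of the TG_HFD group (replicate 8) was the highest of all in most microglial genes and 1 (replicate 3) had the lowest sum of homeostatic and of complement genes, and the member counts and list medians of brainstem TG_HFD are also given without each. In tissue RNA, a lower value can mean fewer microglia or less RNA per microglial cell, and these cannot be told apart here.

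As background, microglia depend on signalling through the receptor Csf1r and on the transcription factors Spi1 (PU.1), Irf8 and Sall1, and they survey neurons with receptors for purines (P2ry12) and fractalkine (Cx3cr1). They are the main source of C1q, whose 3 chains, C1qa, C1qb and C1qc, start the classical complement pathway, while C3, the central component of the cascade, is also made by astrocytes and other cells. Around dying cells or protein deposits, signalling through Trem2 and its adaptor Tyrobp leads to a state with lower P2ry12 and Tmem119 and higher Cst7, Axl, Cd9 and Lgals3.

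PU.1 binds purine-rich sites around a GGAA core, and many promoters of myeloid genes hold such sites. The 250 bases before the RefSeq start (GRCm38.p6) could be read for 28 of the 40 genes. AGGAAGT, searched on both strands, occurred in 7 of the 28 (C1qb, C1qc, C5ar1, Cst7, Fcrls, P2ry12 and Sall1), against 7.69% of all 32851 promoters. GAGGAA, which can share 5 letters with it, occurred in 12 of the 28 and in 23.3% of all. The composite site of PU.1 with an IRF factor (the EICE) occurred in 0 of the 28 and in 2.30% of all. The spellings were chosen with their matches known, and a match is a description of these letters only. Shown are the promoters of P2ry12 and Fcrls, both higher in hippocampus in the comparison of regions, of C1qc, which was at one level in both, and of C3, which was higher in brainstem. Sall1 and Cst7, which also hold AGGAAGT and are not shown, were higher in brainstem, Cst7 under a lower filter on counts. Capitals mark AGGAAGT or its reverse complement, which begins 52 bases before the start in P2ry12, 75 in Fcrls and 195 in C1qc, and does not occur in the C3 window. All 4 genes lie on the minus strand, at chr3:59262986-59263235 (P2ry12), chr3:87263525-87263774 (Fcrls), chr4:136892915-136893164 (C1qc) and chr17:57228137-57228386 (C3).
P2ry12: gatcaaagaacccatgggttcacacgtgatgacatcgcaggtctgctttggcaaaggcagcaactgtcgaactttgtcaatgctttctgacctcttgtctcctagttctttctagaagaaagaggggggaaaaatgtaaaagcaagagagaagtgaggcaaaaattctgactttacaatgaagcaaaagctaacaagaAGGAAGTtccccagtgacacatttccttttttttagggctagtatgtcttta
Fcrls: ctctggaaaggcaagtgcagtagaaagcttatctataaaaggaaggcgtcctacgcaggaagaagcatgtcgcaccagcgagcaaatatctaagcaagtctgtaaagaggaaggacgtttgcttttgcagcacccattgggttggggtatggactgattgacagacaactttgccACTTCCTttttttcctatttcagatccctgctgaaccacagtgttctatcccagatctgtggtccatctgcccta
C1qc: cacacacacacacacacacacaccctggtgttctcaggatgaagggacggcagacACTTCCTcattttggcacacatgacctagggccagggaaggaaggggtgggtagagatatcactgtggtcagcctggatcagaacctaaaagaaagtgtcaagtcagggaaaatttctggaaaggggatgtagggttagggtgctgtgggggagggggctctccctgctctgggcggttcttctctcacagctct
C3: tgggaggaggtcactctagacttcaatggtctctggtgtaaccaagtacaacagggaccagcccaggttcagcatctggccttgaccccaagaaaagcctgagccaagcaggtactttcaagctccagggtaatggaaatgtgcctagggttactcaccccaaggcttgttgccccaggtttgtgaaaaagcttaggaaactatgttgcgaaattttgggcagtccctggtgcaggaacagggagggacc

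Levels are given as CPM, the read count scaled to library size, and different genes were compared per length, as CPM per kb of exon (RPKM, mean ± SD over the libraries of a region). Ctss, the lysosomal protease cathepsin S, was the most abundant of the 40 in both regions, with 98.5 ± 14.5 RPKM in brainstem (n = 23) and 62.1 ± 5.85 in hippocampus (n = 24). The C1q chains followed. C1qa was at 46.6 ± 10.4 and 38.9 ± 5.09 RPKM and C1qb at 46.5 ± 8.61 and 38.7 ± 4.91, and these neighbours did not differ beyond their spread in either region. C1qc was lower per length, at 16.5 ± 3.78 and 16.6 ± 2.47 RPKM. Tyrobp had 27.7 ± 7.17 RPKM in brainstem and 18.9 ± 2.39 in hippocampus. Cd9, a tetraspanin that oligodendrocytes also make, was at 29.3 ± 3.71 RPKM in brainstem, a level within the spread of Tyrobp, and at 15.6 ± 1.68 in hippocampus. At the other end were the receptor for C5a, C5ar1, with 0.289 ± 0.127 and 0.240 ± 0.0898 RPKM, and Tlr4 with 0.363 ± 0.0955 and 0.261 ± 0.0744. Several pattern-recognition and disease-associated genes had few counts. Cst7, the cystatin F of activated microglia, had 8 to 65 counts per library in brainstem and 1 to 10 in hippocampus, and Lgals3 had 7 to 61 and 4 to 14. With a mean count of at least 50, 30 of the 40 genes were tested in brainstem, 29 in hippocampus and 30 between regions. Below that mean in both regions were Spi1, C3ar1, C5ar1, Cd14, Tlr4, Tlr7, Cst7, Lgals3 and Cd52, while Irf8 fell below it in brainstem only and C3 and Tlr2 in hippocampus only.

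The genes differed in how far libraries of the same group spread. The members tested between regions were read here. In brainstem the within-group SD of log2 CPM ran from 0.09 for Axl to 0.35 for Tyrobp. Its median was 0.23 over these members, against 0.16 over all genes. In hippocampus it ran from 0.10 for Sall1 to 0.34 for C3, which was below the count filter within that region, with medians of 0.17 and 0.13. Counting noise of low genes is part of this spread.

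The first comparison asked how microglial genes differ between the regions, over all 4 groups. A gene was called when edgeR's adjusted P was at most 0.05 and its log2 fold-change was at least 0.3 in either direction. Regions differed in most genes, with 60.2% of 13462 called. Of the 30 tested members 18 were called, a share close to this background. Higher in hippocampus were 10 of them (background 29.2%), and 8 were lower (31.0%). All 10 that were higher in hippocampus were homeostatic, out of 19 tested, and 5 homeostatic genes were lower, so that this list had a median log2 fold-change of 0.39 beside -0.02 for all genes. Of the 4 complement genes tested 0 were higher and 1 was lower (median -0.26). The lower gene was C3, which passed the count filter only through brainstem, where it was high. Of the 7 activation genes 0 were higher and 2 were lower (median -0.24). At the adjusted P alone, 24 members passed, 12 in each direction, or 80.0% beside 86.8% of all genes. Without TG_HFD replicate 8 or replicate 3 of brainstem, 18 members were called in both cases.

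**Figure D1:**
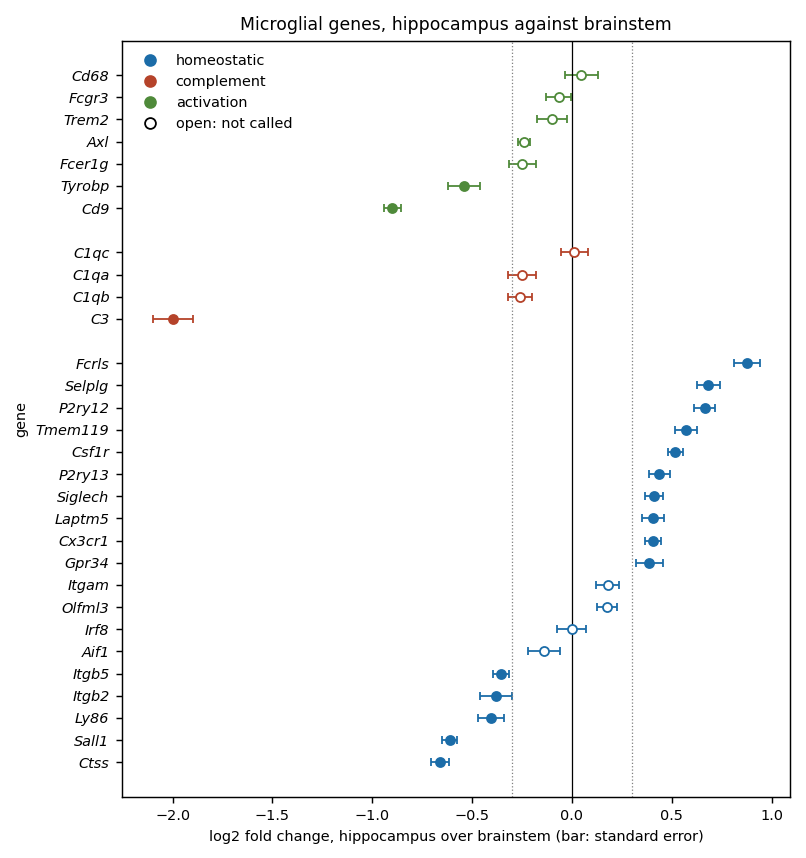
Log2 fold-change of hippocampus over brainstem for the 30 tested genes, by list (colour), with the standard error as bars, dotted lines at the fold threshold of 0.3 and open circles for genes not called. The 10 called genes to the right of 0 are all homeostatic. C3, which passed the count filter only through brainstem, lies farthest to the left at -1.998.

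Of the 10 genes higher in hippocampus, Fcrls, an Fc receptor-like protein, had the largest difference. It had 10.3, 13.1 and 21.1 CPM as the lowest, median and highest of the 23 brainstem libraries and 19.1, 24.2 and 34.2 CPM in the 24 of hippocampus. Only the highest brainstem library reached into the range of hippocampus, and the log2 fold-change was 0.88 (SE 0.06, edgeR adjusted P = 2.51e-17). P2ry12, the ADP receptor that steers microglial processes, had 20.4, 25.9 and 34.4 CPM in brainstem and 31.5, 41.7 and 51.0 in hippocampus, with a narrow overlap (log2 difference 0.66, SE 0.05, adjusted P = 3.14e-16). Selplg, the selectin ligand PSGL-1, was higher by 0.68 (SE 0.06). Tmem119, a membrane protein used to tell microglia from other macrophages, had 8.71 to 17.3 CPM in brainstem libraries and 14.8 to 25.8 in hippocampus (log2 difference 0.57, SE 0.06, adjusted P = 3.18e-13). Csf1r, the receptor for Csf1 and Il34, ranged from 53.5 to 82.3 CPM and from 71.6 to 99.99 CPM (0.52, SE 0.04). Cx3cr1 was at 35.5 to 54.98 CPM and 49.2 to 67.8 CPM (0.40, SE 0.04). P2ry13 (0.44), Siglech (0.41), the lysosomal Laptm5 (0.41) and Gpr34 (0.39) completed the 10. In each of the 4 genotype and diet groups taken alone, the ratio of mean CPM was above 0 on the log2 scale for all 10, from 0.22 to 1.09. With a correction for GC content, chosen after seeing the data, Tmem119 (0.29) and Laptm5 (0.27) fell below the fold threshold. It called 8 of the 30 members higher and 11 lower, beside 3777 and 4216 of all 13462 genes.

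Other homeostatic genes were higher in brainstem. Sall1, a transcription factor of microglial identity, had 22.4, 30 and 36.8 CPM in brainstem and 16.4, 19.4 and 22.1 in hippocampus, and the libraries of the regions did not overlap (log2 fold-change -0.61, SE 0.04, adjusted P = 3.96e-20). Ctss had 110.2, 128.1 and 204.9 CPM against 70.6, 82.3 and 102.4, again without overlap (-0.66, SE 0.05). Ly86 (MD-1, partner of a Toll-like receptor homologue) fell by 0.40 from brainstem to hippocampus, the integrin chain Itgb2 (CD18) by 0.38 and Itgb5 by 0.36. In the WT_SD libraries alone Itgb2 (-0.11, SE 0.17, adjusted P = 0.568) and Itgb5 (-0.28, SE 0.08) were not called. The libraries of the regions did not overlap in 4 of the 30 tested members, where 35.0% of all tested genes did not overlap. These were Sall1, Ctss, C3 and Cd9, all higher in brainstem, and C3 passed the count filter only through brainstem. Irf8 (log2 fold-change -0.0013, SE 0.07) and Aif1 (-0.14, SE 0.08) did not pass, and Itgam (0.18) and Olfml3 (0.17) passed the adjusted P but not the fold threshold.

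**Figure D2:**
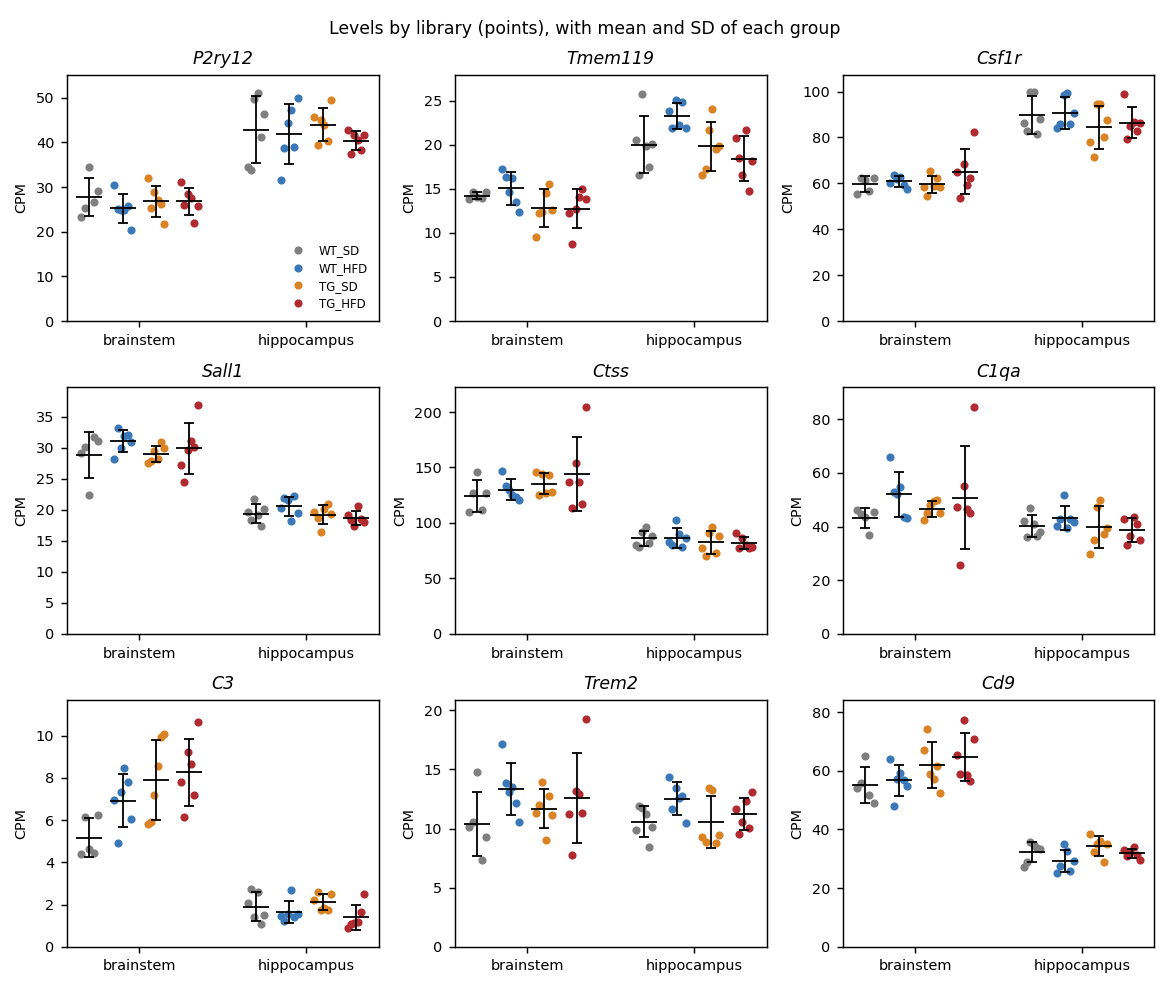
CPM of 9 genes in each library (points, coloured by group), with the mean and SD of each group, brainstem to the left and hippocampus to the right of each panel. P2ry12, Tmem119 and Csf1r are higher in hippocampus, whereas Sall1, Ctss, C3 and Cd9 are higher in brainstem in every library, and 1 TG_HFD library of brainstem is the highest point of Ctss, C1qa, C3 and Trem2.

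In the complement list the largest difference was that of C3, with 4.41, 7.18 and 10.6 CPM in brainstem and 0.902, 1.60 and 2.73 CPM in hippocampus. Every brainstem library was above every hippocampus library, and the fold was 0.25 (log2 -1.998, SE 0.10). C3 passed the count filter only through brainstem, where it was high, and had 12 to 40 counts per hippocampus library. Its P is therefore not given as a test. The group ratios ranged from -2.56 to -1.45. The C1q chains differed little between the regions. C1qa had 25.7, 46.0 and 84.5 CPM in brainstem and 29.6, 40.6 and 51.8 in hippocampus (-0.25, SE 0.07), C1qb was nearly alike (-0.26, SE 0.06), and both passed the adjusted P but not the fold threshold. C1qc had 30.5 CPM as its median in brainstem and 31.5 in hippocampus (0.01, SE 0.07, edgeR adjusted P = 0.869). The receptors C3ar1 and C5ar1 had too few counts for the mean count of 50. When genes with a total count of at least 50 were kept instead, C3ar1, the receptor for C3a, was lower in hippocampus (-0.67, SE 0.11, adjusted P = 1.15e-07) and C5ar1 was not called (-0.21, SE 0.16).

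The receptor Trem2 and its adaptor did not show the same difference. Trem2 had 7.37, 11.98 and 19.3 CPM in brainstem and 8.47, 11.4 and 14.3 in hippocampus (log2 fold-change -0.10, SE 0.08, adjusted P = 0.208), whereas Tyrobp ranged from 12.6 to 33.7 and from 10.3 to 16.8 CPM and was lower in hippocampus (-0.54, SE 0.08, adjusted P = 3.48e-08). The difference between these genes was not itself tested. Cd9 had 48.1, 58.6 and 77.5 CPM in brainstem and 25.2, 32.5 and 38.5 in hippocampus (-0.90, SE 0.04). Axl, a receptor for Gas6 on phagocytes, passed the adjusted P but not the fold threshold (-0.24, SE 0.03), as did Fcer1g (-0.25, SE 0.07). The lysosomal Cd68 (0.05, SE 0.08) and the Fc receptor Fcgr3 (-0.07, SE 0.06) did not pass. Among the 7 activation genes below the mean count of 50, the lower filter called 5 lower in hippocampus and 1 higher, where 33.1% of the 23108 genes kept were lower. Cst7 had 0.658 to 4.35 CPM in brainstem libraries and 0.06301 to 0.802 in hippocampus (-2.04, SE 0.23), Tlr2 had 2.86 to 8.56 and 0.642 to 1.804 CPM (-1.95, SE 0.10), and Cd52, a small surface glycoprotein of leukocytes, had 1.58 to 5.69 and 0.431 to 2.04 CPM (-1.52, SE 0.13). Tlr2 did not overlap between the regions. Lgals3 (-0.91, SE 0.16) and Tlr4 (-0.41, SE 0.11) were also lower, Tlr7 was higher (0.40, SE 0.10), and Cd14 was not called (-0.25, SE 0.08).

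Other cells that make some of these genes also differed between the regions. The summed level of 6 oligodendrocyte markers was 12291 to 20736 CPM in brainstem and 2986 to 4639 CPM in hippocampus, 6 of 6 of them lower in hippocampus, and their part in the difference of Cd9 was not tested. The border macrophage markers, 8 genes led by Stab1 and including Mrc1, Cd163 and Lyve1, summed to 12.1 to 20.6 CPM and 12.3 to 20.1 CPM. Stab1 itself was called higher in hippocampus (0.45, SE 0.06), and the other markers had too few counts to be tested. The summed monocyte and neutrophil markers, 6 genes led by Ly6c2, were higher in brainstem, at 13.5 to 23.7 against 7.26 to 11.6 CPM, where S100a8, Ngp, Plac8 and Ccr2 were near 0 in hippocampus (at most 5 counts per library). Of these markers Ly6c2 alone had enough counts to be tested (-0.91, SE 0.06), and the endothelial marker Ly6c1 had a similar value (-0.89, SE 0.06). The lymphocyte markers, 6 genes with Cd3e and Cd79a among them, were at 0.8288 to 3.17 and 0.0728 to 1.07 CPM. The 5 red cell markers, which come with blood, were at 603 to 3377 and 168 to 575 CPM. The part of these cells in the differences of Tlr2, Cst7 and Cd52 was not tested.

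Further genes of the same pathways were read from lists set beside the members. Of all genes tested between the regions, 29.2% were called higher in hippocampus and 31.0% lower. Of 16 tested identity genes outside the set, 4 were higher in hippocampus and 4 were lower, with Golm1 (log2 fold-change 2.705, SE 0.04) and Mertk (0.999, SE 0.05), a receptor for phagocytosis that astrocytes share, among the higher and the lysosomal protease Lgmn (-1.15, SE 0.03) among the lower. Of 10 further complement genes, 1 was higher and 6 were lower, with Clu higher (0.54, SE 0.04) and the inhibitor Cd59a lower (-3.30, SE 0.06). All 14 further activation genes were called, 3 higher and 11 lower, including Lpl (2.58), Spp1 (-5.68, SE 0.10) and Cd74 (-2.18, SE 0.11). Among 10 genes of signalling between microglia and other cells, both ligands and the receptor Sirpa, 5 were higher and 4 were lower. The higher ones included the Csf1r ligand Il34 (1.35, SE 0.04) and the Cx3cr1 ligand Cx3cl1 (1.88, SE 0.03). Csf1 (-0.43, SE 0.03) and Gas6 (-1.02, SE 0.04) were among the lower. Csf1 was counted both here and among the further activation genes. Which cells made these further genes was not tested.

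Whether the transgene changed microglial genes was asked on each diet and in each region, with 4 surrogate variables in the model of each region. In brainstem of mice on SD, 19 genes were called in TG against WT, 0.142% of 13340, and 1 of the 30 tested members was among them, C3. Replicates 1, 4, 6, 7 and 8 of WT_SD had 4.41, 6.13, 4.62, 4.46 and 6.26 CPM of C3. The TG_SD libraries 1, 2, 5, 6, 7 and 8 had 5.80, 5.91, 7.18, 8.59, 9.92 and 10.1 CPM. The groups overlapped, since the lowest TG_SD libraries lay below the highest of WT_SD. The log2 fold-change of C3, TG_SD over WT_SD, was 0.73 with an SE of 0.15 (edgeR adjusted P = 0.0157). The call rested on the surrogate variables. Without them the log2 fold-change was 0.61 (SE 0.17) and the adjusted P was 0.788. It was also lost without TG_SD replicate 7 (adjusted P = 0.0509) or 8 (0.0989) or without WT_SD replicate 1 (0.0598), 4 (0.0690) or 7 (0.0592), each of which left the log2 fold-change between 0.62 and 0.70. DESeq2 with the same surrogate variables gave 0.72 (SE 0.15) and, by its own filter on low counts, no adjusted P for C3. Choroid plexus is a further tissue in these samples, and its marker Ttr ranged from 12.5 to 2860 CPM in TG_SD and from 15.4 to 1495 CPM in WT_SD. The endothelial marker Cldn5 was called in the same comparison (0.39, SE 0.08, adjusted P = 0.0284), with 17.6 to 32.7 CPM in TG_SD and 18.2 to 24.5 in WT_SD. Their part in the value of C3 was not tested.

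The other 29 tested members were not called. Values of the C1q chains were 0.27 (C1qa, SE 0.11, adjusted P = 0.360), 0.22 (C1qb) and 0.16 (C1qc). Itgb2 had the lowest P of the homeostatic list (0.41, SE 0.16, adjusted P = 0.309) and Trem2 that of the activation list (0.25, SE 0.14, adjusted P = 0.548). At an unadjusted P of 0.05, 6 of 30 members passed, all with higher values in TG_SD, where 10.5% of all genes passed. List medians were 0.07 for homeostatic, 0.24 for complement and 0.17 for activation genes, beside 0.00 for all genes. In 10 further complement genes and 15 further activation genes 0 were called.

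On HFD, 7 genes of brainstem were called in TG against WT (0.0525%), with 0 of 30 members. DESeq2 with the same surrogate variables also called 0, and 5 members passed an unadjusted P of 0.05, all with higher values in TG_HFD, beside 5.59% of all genes. C3 ranged from 4.92 to 8.47 CPM in WT_HFD and from 6.17 to 10.6 in TG_HFD (log2 fold-change 0.32, SE 0.17, adjusted P = 0.920). Cd9 (0.25, SE 0.08, adjusted P = 0.696) and Olfml3 (0.23, SE 0.10, adjusted P = 0.865) had the lowest P of their lists. The medians were 0.10, 0.15 and 0.25 for homeostatic, complement and activation genes. Without TG_HFD replicate 8 they were 0.03, 0.02 and 0.10, without replicate 3 they were 0.09, 0.14 and 0.23, and 0 members were called in either case.

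That library was the highest of all 23 brainstem libraries in 20 of the 30 members tested between regions. It had 15.7 CPM of Cd68 where the rest of TG_HFD had 4.52 to 7.55, 14.8 CPM of Itgb2 against 5.10 to 8.53, and 84.5 CPM of C1qa against 25.7 to 55.1. Its summed homeostatic level was 711 CPM, complement 235 and activation 265, where 21 other libraries had 469 to 599, 108 to 189 and 164 to 227 CPM. Its astrocyte markers summed to 2311 CPM, also the highest, and its border macrophage, monocyte and lymphocyte markers lay within the range of the other libraries. TG_HFD replicate 3 was the lowest library for 10 of the 30 members, with 438 CPM of homeostatic and 84.9 CPM of complement genes, and it had the highest sum of meningeal markers, 86.1 CPM, and the lowest of oligodendrocyte markers, 12291 CPM. Its choroid plexus markers summed to 2444 CPM, where 21 other libraries had 20.99 to 2966. The slope of its log2 deviations on the GC content of genes, per 10 percentage points, was -0.325. This was the lowest of the brainstem libraries, next to -0.291 in TG_SD replicate 1, and replicate 8 had 0.0837. Which tissue, cells or RNA set these libraries apart was not tested.

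**Figure D3:**
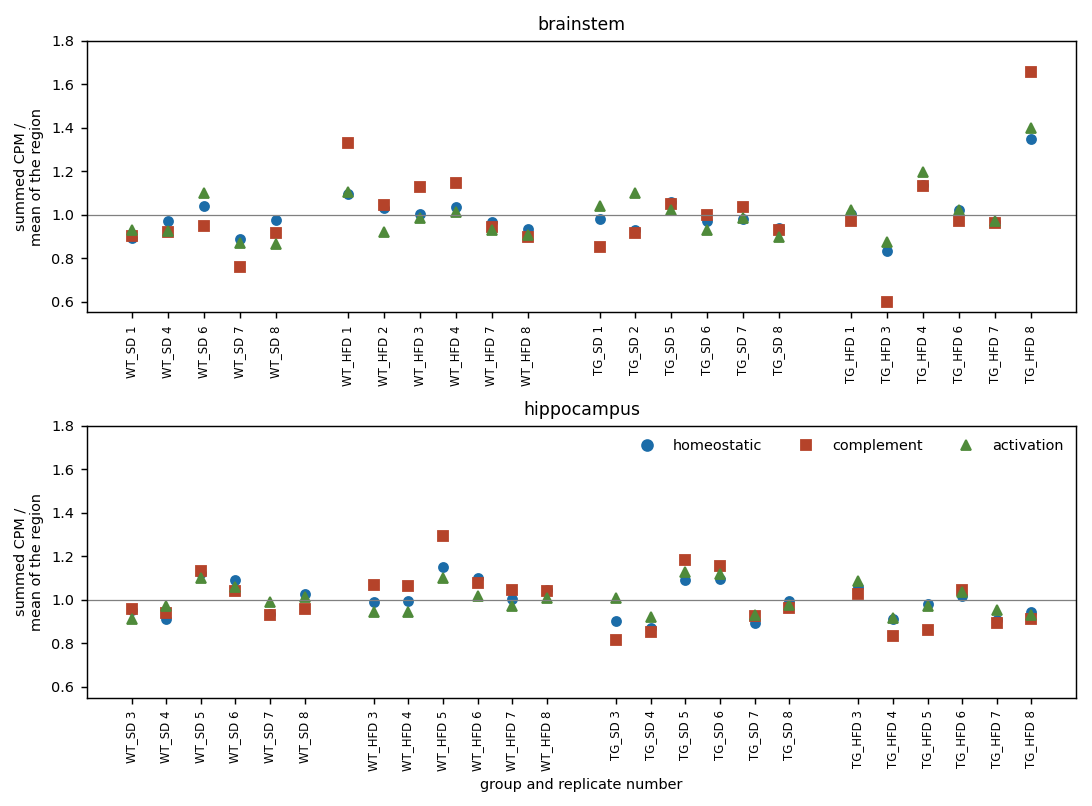
Summed CPM of homeostatic (circles), complement (squares) and activation genes (triangles) in each library, divided by the mean over the libraries of its region, for brainstem (top) and hippocampus (bottom). In brainstem TG_HFD replicate 8 lies above all others and TG_HFD replicate 3 has the lowest circle and square, whereas the 24 hippocampus libraries lie closer together.

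In hippocampus on SD, 12 genes were called in TG against WT (0.0904%), with 0 of 29 members by edgeR or by DESeq2 with the same surrogate variables. At an unadjusted P of 0.05 3 members passed, all homeostatic and with lower values in TG_SD, where 9.08% of all genes passed. Csf1r had the lowest P (log2 fold-change -0.11, SE 0.04, adjusted P = 0.354), with 71.6 to 94.4 CPM in TG_SD and 81.5 to 99.99 in WT_SD. The lowest P of complement was that of C1qc (-0.08, SE 0.06, adjusted P = 0.707) and of activation that of Tyrobp (-0.06, SE 0.07, adjusted P = 0.845). P2ry12, at 39.5 to 49.5 CPM in TG_SD and 33.8 to 51.0 in WT_SD, and Trem2, at 8.80 to 13.4 and 8.47 to 11.9, overlapped widely.

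On HFD, 30 genes of hippocampus were called in TG against WT (0.226%), again with 0 of 29 members in the model with surrogate variables. By DESeq2 with the same variables the count was also 0, and 5 members passed an unadjusted P of 0.05, all with lower values in TG_HFD, beside 11.3% of all genes. C1qb had the lowest P, with 45.2, 45.9, 54.8, 44.2, 41.6 and 44.9 CPM in replicates 3 to 8 of WT_HFD and 45.5, 40.7, 36.7, 44.7, 32.8 and 37.0 in those of TG_HFD (-0.23, SE 0.07, adjusted P = 0.130). P2ry12 (-0.22, SE 0.09, adjusted P = 0.317) and Tyrobp (-0.19, SE 0.10, adjusted P = 0.480) had the lowest P of their lists. With each library left out in turn, P2ry12 ranged from -0.29 to -0.07 and Tyrobp from -0.25 to -0.07, both nearest to 0 without WT_HFD replicate 8, and without surrogate variables both were -0.05. The medians were -0.11 for homeostatic, -0.21 for complement and -0.01 for activation genes, and -0.01 for all genes.

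Without surrogate variables 3 members were called lower in TG_HFD, namely Tmem119, Selplg and C1qc, where 3.56% of all genes were called lower. The same 3 were called with 2 surrogate variables and by DESeq2 without any. The shares of all genes called in these models, and with the GC correction below, are not given here. The repeated calls therefore add no support for the members. Tmem119 had 23.8, 21.9, 25.1, 22.3, 24.9 and 21.9 CPM in WT_HFD and 20.8, 18.5, 16.5, 21.7, 14.8 and 18.2 in TG_HFD, with every TG_HFD library below every WT_HFD library, as in 3.71% of 13044 genes. Selplg had 30 to 35.5 CPM in WT_HFD and 19.7 to 28.4 in TG_HFD, and C1qc had 32.5 to 42.7 and 22.7 to 32.2, also without overlap, so that 3 of 29 members did not overlap in this direction. Their log2 fold-changes were -0.33, -0.39 and -0.38 without surrogate variables (SE 0.10, 0.10 and 0.09) and -0.16, -0.19 and -0.21 with 4 (SE 0.10, 0.08 and 0.08). WT_HFD had the highest mean of the 4 groups in all 3 genes. Tmem119 ranged from 16.5 to 25.8 CPM in WT_SD and from 16.6 to 24.1 in TG_SD, and Selplg from 23.5 to 30.3 and from 16.8 to 30.01. The same libraries differed in how levels followed the GC content of genes. The slope of a library's log2 deviation on GC content, per 10 percentage points, was -0.0197 to 0.173 in WT_HFD and -0.125 to 0.00523 in TG_HFD. Exons of Tmem119 were 59.1% and of C1qc 57.5% GC, above 94.3% and 89.9% of tested genes, and those of Selplg were 49.8% GC, near the median of 49.4%. When GC content was corrected for and no surrogate variables were used, 1 of the 3 was called, Selplg (-0.40, SE 0.10, adjusted P = 0.0414), while Tmem119 (-0.12, SE 0.09) and C1qc (-0.22, SE 0.07, adjusted P = 0.166) were not.

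**Figure D4:**
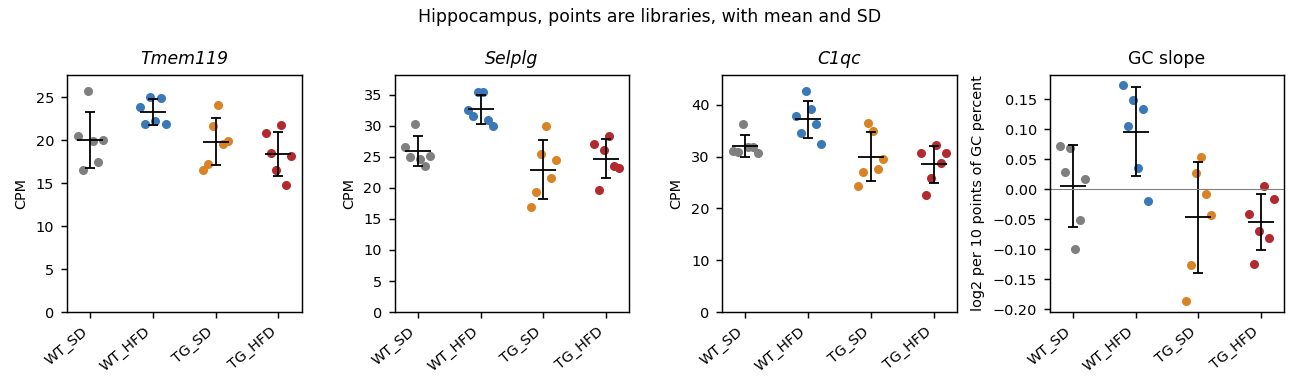
CPM of Tmem119, Selplg and C1qc in the 24 hippocampus libraries by group, and (right) the slope of each library's log2 deviations on GC content per 10 percentage points, with group mean and SD. WT_HFD lies above TG_HFD in all 3 genes without overlap, and its slopes are the highest of the 4 groups on average.

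The diet comparisons called almost nothing in the models with 4 surrogate variables. In brainstem 0 genes were called between WT_HFD and WT_SD (0.0%) and 1 gene between TG_HFD and TG_SD (0.0075%), with 0 of 30 members in both by edgeR and by DESeq2 with the same surrogate variables. At an unadjusted P of 0.05, 3 members passed in each, all with higher values on HFD, beside 5.43% of all genes in WT and 6.91% in TG. The medians of TG_HFD against TG_SD were 0.07, 0.01 and 0.15 for homeostatic, complement and activation genes. They were 0.03, -0.06 and 0.07 without TG_HFD replicate 8, and 0.12, 0.08 and 0.24 without replicate 3. Without replicate 3, 6 members passed that P and 0 were called. The share of all genes that passed in that fit is not given here. C3 had a log2 fold-change of 0.35 in WT (SE 0.16, adjusted P = 0.910) and of -0.06 in TG. Itgb5 (0.15, SE 0.05) and Trem2 (0.23, SE 0.15) had the lowest P of their lists in WT, and Ly86 (0.27, SE 0.09, adjusted P = 0.520), Cd9 (0.15, SE 0.07) and C1qc (0.08, SE 0.11) in TG. C1qa ranged from 36.9 to 46.0 CPM in WT_SD and from 43.2 to 65.9 in WT_HFD. In hippocampus 0 genes were called on either genotype (0.0%). Selplg had the lowest P of the homeostatic list in both, 0.22 in WT (SE 0.07, adjusted P = 0.635) and 0.17 in TG (SE 0.06, adjusted P = 0.533), and C1qb had that of complement, 0.19 in WT (SE 0.06, adjusted P = 0.608) and -0.04 in TG. An unadjusted P of 0.05 was passed by 4 members in WT and by 1 in TG, beside 6.404% and 7.08% of all genes. With 2 surrogate variables Selplg was called in WT (0.36, SE 0.07, edgeR adjusted P = 0.0227), and this was the only member called for diet under any model run. The share of all genes called in that model is not given here, so the call cannot be set beside it.

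**Figure D5:**
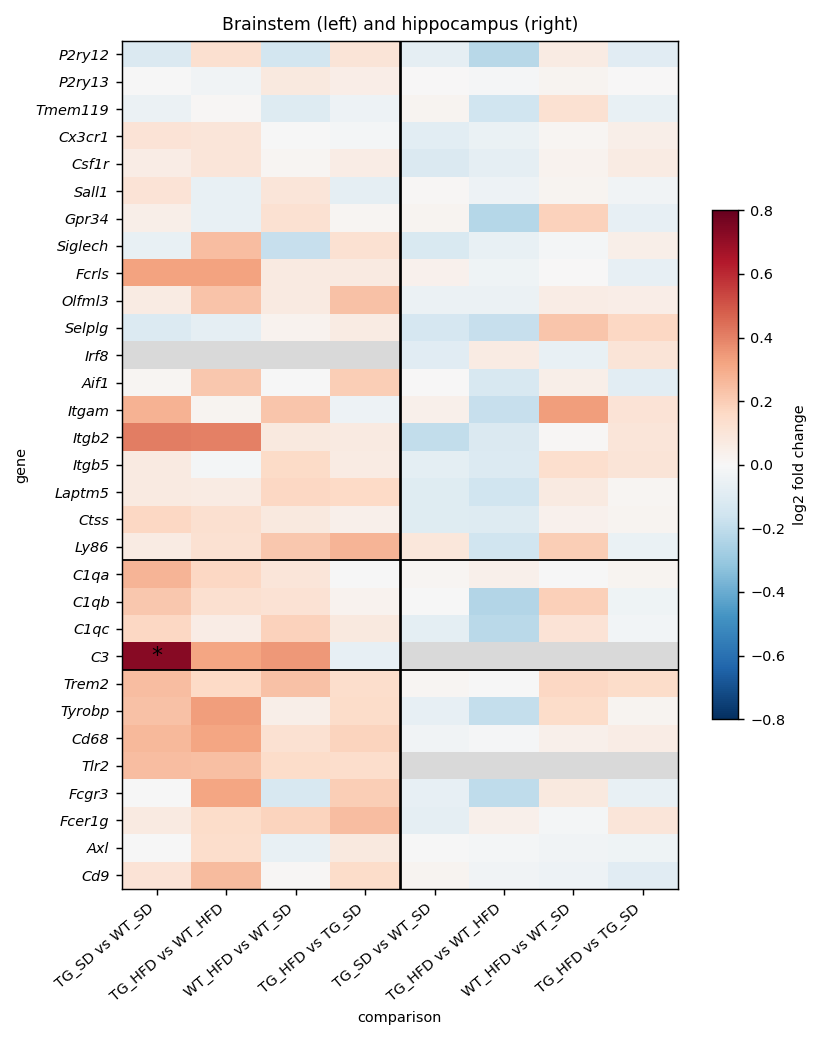
Log2 fold-changes of the members tested in either region (rows, lists divided by lines) in 4 comparisons of brainstem (left) and 4 of hippocampus (right), with the asterisk for a call and grey where a gene had too few counts. C3 in TG_SD against WT_SD of brainstem carries the only asterisk.

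The test of whether diet changed the effect of the transgene called 1 gene in brainstem (0.0075%) and 0 in hippocampus (0.0%), with 0 members in each by edgeR and by DESeq2 with the same surrogate variables. At an unadjusted P of 0.05, 2 of 30 and 1 of 29 members passed, beside 4.83% and 5.98% of all genes. Without TG_HFD replicate 8 or 3 of brainstem, 1 and 2 members passed that P and 0 were called. The shares of all genes in those fits are not given here. C3 had an interaction of -0.41 in brainstem (SE 0.23, adjusted P = 0.993) and C1qb one of -0.23 in hippocampus (SE 0.08, adjusted P = 0.632). Siglech (0.31, SE 0.14) and Axl (0.14, SE 0.08) in brainstem and Gpr34 (-0.25, SE 0.13) and Tyrobp (-0.12, SE 0.11) in hippocampus had the lowest P of their lists. Without WT_HFD replicate 8 of hippocampus, Gpr34 was at -0.07 and Tyrobp at -0.06.

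Several members had values on opposite sides of 0 in the regions, so the difference of each effect between the regions was tested in a model of all 47 libraries. It called 1 gene for the effect of the transgene on SD and 1 on HFD (0.00743% each) and 0 for either effect of diet (0.0%), and 0 of 30 members in each of the 4 tests, with DESeq2 too. At an unadjusted P of 0.05, 0 members passed for the transgene on SD and 1 on HFD, and 1 for diet in WT and 2 in TG, beside 2.76%, 5.65%, 2.28% and 3.30% of all genes. Without brainstem TG_HFD replicate 3, 9 passed for the transgene on HFD and 6 for diet in TG. Without replicate 8 it was 0 and 1, and 0 were called in each case. The shares of all genes that passed in those fits are not given here, so these counts are not a result about the members. The lowest P were those of Itgb2 for TG_SD against WT_SD (hippocampus minus brainstem -0.40, SE 0.23) and Fcgr3 for TG_HFD against WT_HFD (-0.36, SE 0.18, edgeR adjusted P = 0.857). For both diet effects it was that of C3 (-0.63, SE 0.30 in WT and -0.67, SE 0.29 in TG). C3 passed the count filter only through brainstem, and its hippocampal values rest on 12 to 40 counts per library.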

How the data were processed

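Poly(A) RNA-seq libraries (75 bp, single-end) of brainstem and hippocampus were analysed from 2 tables of raw counts per Ensembl gene. Per the labels and methods, the authors checked reads with FastQC 0.11.9 and aligned them with STAR 2.7.9a to Ensembl v104 (GRCm39) with the transgene added. The counting tool is not given in the sources used here. They left out 1 brainstem WT_SD sample for RNA quality. The authors' deposited counts were whole numbers, not normalized, and every row had a total of at least 2 counts, so the tables hold different rows. The identity and level of the transgene are not reported here.

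The counts were fitted with edgeR 4.0.16 (TMM normalization, quasi-likelihood test, Benjamini-Hochberg adjustment over all tested genes), with the 4 groups of a region in one model and a mean count of at least 50. Surrogate variables, that is unlabelled sources of variation estimated from the data, came from svaseq (sva 3.50.0), whose permutation method gave 4 in each region. Regions were compared in a model of 47 libraries and 8 groups without surrogate variables, which treats libraries as separate animals although, per the study, RNA of both regions came from the animals of each group, so libraries of the regions may share animals. Calls needed an adjusted P of at most 0.05 and a log2 fold-change of at least 0.3, the thresholds of the study. With DESeq2 and its own surrogate variables, the study reported more differential genes in each region than were called here within the regions. CPM used joint TMM factors. The scripts were tested on simulated counts. Exon length and GC content came from GENCODE M21 (GRCm38), another annotation than that of the counts, so no gene coordinates are given beyond RefSeq promoters. Libraries held 10020784 to 17328447 counts, so the lowest genes, at 1 CPM or less, rest on a handful of counts each. Reads without molecular identifiers are not independent molecules, so such counting precision is an upper limit.

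Genes named are fixed markers (P2ry12, Tmem119, Cx3cr1, Csf1r, Sall1, Spi1, C1qa, C1qb, C1qc, C3, Trem2, Tyrobp, Cst7, Axl, Cd68 and Tlr2), every member called within a region, and the member with the lowest P of each list in each comparison. All members called between regions are named too. The members, lists and tests were chosen with earlier results of these data known. Alternatives were 0 or 2 surrogate variables, DESeq2 1.42.0, RLE normalization, a total count of at least 50, no fold threshold, a GC correction, a replicate block, WT_SD alone for the regions, and each library left out. Replicate numbers were not used to pair libraries in the main models. Pairing was set to need correlated deviations above 0.1 in all pairs with the same number. This held for 10 of 26 pairs in brainstem and 15 of 36 in hippocampus. In hippocampus the mean correlation was 0.108 for the same number and -0.022 for other pairs, and 9 of 24 libraries correlated best with their own number. In brainstem these values were 0.043, -0.0052 and 3 of 23. Libraries were compared within a region only, and what those of the same number share was not tested. No replicate pair agreed within sampling noise (lowest chi-square per degree of freedom 3.66).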

Additional observations from a re-analysis of the deposited data

Results flagged for a closer look

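Within the 8 groups, the highest or lowest library of a gene was set against the nearest of the others as a share of the group's range (Dixon's criterion, 95%). Over 24 named genes and 8 groups, 192 tests gave 17 values beyond the criterion, from 12 libraries, and chance gives about 1 in 20. The causes were not tested.

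In brainstem, WT_SD replicate 6 had 22.4 CPM of Sall1, below 29.1 to 31.6 in the rest of its group, and it had 2.20 CPM of Cst7 above 0.676 to 1.08 and 15.2 CPM of Gpr34 above 8.42 to 9.70. WT_SD replicate 7 had 36.9 CPM of C1qa where the others had 43.5 to 46.0, and WT_SD replicate 1 had 60.4 CPM of Axl where they had 52.1 to 54.4. WT_HFD replicate 4 had 0.996 CPM of Spi1 below 1.82 to 2.29. In TG_HFD, replicate 8 had 15.7 CPM of Cd68 above 4.52 to 7.55 and 14.8 CPM of Itgb2 above 5.10 to 8.53, and replicate 4 had 24.8 CPM of Olfml3 above 18.3 to 19.998 and 14.5 CPM of Gpr34 above 9.21 to 11.2.

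In hippocampus, 5 of the 7 values were in WT_HFD. Its replicate 5 had 51.8 CPM of C1qa above 39.4 to 43.0 and 54.8 CPM of C1qb above 41.6 to 45.9, replicate 6 had 2.7 CPM of C3 above 1.203 to 1.58, replicate 4 had 0.802 CPM of Cst7 above 0.164 to 0.309, and replicate 7 had 41.8 CPM of Itgb5 below 48.3 to 51.8. WT_SD replicate 5 had 36.4 CPM of C1qc above 30.7 to 31.9, and TG_HFD replicate 3 had 52.8 CPM of Axl above 41.1 to 44.9.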

How the results depend on the processing

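Between the regions, the count of 18 members called stayed within 17 to 25 under every alternative run (24 with no fold threshold, beside 86.8% of all genes, 25 of 40 with the total count filter, beside 60.8%, 20 with surrogate variables, beside 58.5%, 18 by DESeq2, RLE normalization or a replicate block, 17 in WT_SD alone), and it was 18 without each of the 47 libraries in turn. In brainstem, the 1 member called in TG_SD against WT_SD, C3, became 0 with 0 surrogate variables, with the GC correction (log2 fold-change 0.64, adjusted P = 0.538), by DESeq2 with or without surrogate variables (with them C3 has no adjusted P), and with a replicate block, with surrogate variables (0.80, adjusted P = 0.10) or without them (0.78, adjusted P = 0.178). With each library left out the count ranged from 0 to 1, and the log2 fold-change from 0.62 to 0.80. In hippocampus, the 0 members of TG_HFD against WT_HFD became 3 with 0 or 2 surrogate variables, with a replicate block without surrogate variables and by DESeq2 without them, and 1 with the GC correction. The 0 of WT_HFD against WT_SD became 1 with 2 surrogate variables. Among these alternatives in hippocampus, the share of all genes is given only for 0 surrogate variables (3.56% called lower in TG_HFD against WT_HFD). Under the GC correction without surrogate variables, Tyrobp in hippocampus changed sign in TG_SD against WT_SD (0.019), TG_HFD against WT_HFD (0.023) and the interaction (0.0043), never past a threshold. The replicate block changed no other call. The cause of these changes was not tested, beyond the construction of each alternative. Low counts limit Cst7, Lgals3, C5ar1, Tlr4, Spi1 and the hippocampal C3, which were not tested within regions or only where the mean count allowed.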

Other observations

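Marker lists of other cells gave few calls within the regions. Over the lists of neurons, astrocytes, oligodendrocytes and their precursors, endothelium, choroid plexus, meninges, blood and further microglial pathways, 91 genes were tested in brainstem and 89 in hippocampus, and Cldn5 in brainstem (TG_SD against WT_SD) was the 1 call over the 5 comparisons of each region. Choroid plexus markers summed to 20.99 to 2966 CPM over the brainstem libraries and to 40.05 to 317 CPM over those of hippocampus. The sum of 6 neuronal markers was 3866 to 4443 CPM in brainstem and 5381 to 6285 CPM in hippocampus, and that of 6 astrocyte markers was 1648 to 2311 and 1476 to 2067 CPM.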
